A study of Mus musculus with 6 samples.

Results

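The genes described here are 41 lineage markers of blood and lymphoid cells that a gate for CD4+Foxp3+ regulatory T cells (Treg cells) is meant to leave out. They were taken by symbol from the 24453 gene symbols of the expression table, and all 41 were found: 10 markers of B cells, 15 of myeloid cells, 5 of dendritic cells, 4 of CD8 T cells and natural killer (NK) cells and 7 of erythroid cells. RNA was sequenced from 3 libraries of miR-27 Tg Treg cells, which overexpress miR-27a in Treg cells, and from 3 libraries of WT Treg cells, whose genotype label reads WT Tg, without saying what the wording means. Both groups were FACS-sorted from healthy female C57BL/6 mice, whose age is not given. The series names the mice Foxp3cre het. Foxp3 is on the X chromosome, so in a heterozygous female random X inactivation leaves the allele with Cre active in only a part of her Treg cells. Whether the WT mice carry the Cre allele, and how the sorted cells were chosen beyond CD4 and Foxp3, is not given. The labels do not tie the 3 libraries of a group to separate mice, so the p-values reflect the spread among libraries, and that spread may be technical.

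Treg cells are CD4 T cells that restrain immune responses, and their transcription factor Foxp3 allows them to be sorted. B cells bind antigen with membrane immunoglobulin, myeloid cells engulf and digest particles, dendritic cells take up antigen and show it to T cells, and red cell precursors make haemoglobin. Each lineage keeps a set of genes that Treg cells use little or not at all and can report RNA of other cells in a sorted sample. Some of them (Ctss, Cst3, Tcf4, Irf8, Eomes and the Cd8 genes among them) can also be transcribed in T cells. In bulk RNA, fewer cells of a type and less RNA per cell cannot be told apart.

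Promoter sequences are shown for the 3 myeloid markers with the largest fold changes and for Lyz2, the neighbour of Lyz1. Siglech, the dendritic marker whose level varied most within the groups, is shown as well. Each is the 250 bases before the gene's start from RefSeq (GRCm38.p6), written 5′ to 3′ on the gene's strand. Capitals mark matches, on either strand, to GAGGAA, the core bound by PU.1, and to TTGCNNAA, a core bound by C/EBP factors, both of which act in myeloid cells.
S100a8 (chr3:90668821-90669070, plus strand): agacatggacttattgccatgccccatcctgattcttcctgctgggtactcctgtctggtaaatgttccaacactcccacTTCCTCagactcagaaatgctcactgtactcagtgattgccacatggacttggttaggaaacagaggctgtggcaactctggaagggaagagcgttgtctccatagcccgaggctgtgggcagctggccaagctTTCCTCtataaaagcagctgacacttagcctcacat
S100a9 (chr3:90695722-90695971, minus strand): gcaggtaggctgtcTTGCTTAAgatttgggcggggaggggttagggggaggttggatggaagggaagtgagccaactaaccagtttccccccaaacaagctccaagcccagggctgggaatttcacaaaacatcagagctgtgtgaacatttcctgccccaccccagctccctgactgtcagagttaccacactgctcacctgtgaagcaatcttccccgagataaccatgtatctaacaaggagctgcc
Siglech (chr7:55767934-55768183, plus strand): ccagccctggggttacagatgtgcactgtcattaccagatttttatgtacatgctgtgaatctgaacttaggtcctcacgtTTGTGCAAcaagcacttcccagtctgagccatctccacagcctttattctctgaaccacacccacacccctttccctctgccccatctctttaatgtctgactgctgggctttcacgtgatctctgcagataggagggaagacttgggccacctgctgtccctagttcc
Lyz1 (chr10:117292869-117293118, minus strand): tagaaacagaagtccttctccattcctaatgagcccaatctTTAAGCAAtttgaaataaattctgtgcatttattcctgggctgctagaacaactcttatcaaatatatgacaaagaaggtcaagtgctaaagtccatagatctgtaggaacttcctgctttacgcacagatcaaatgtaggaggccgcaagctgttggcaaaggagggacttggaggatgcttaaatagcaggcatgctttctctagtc
Lyz2 (chr10:117282273-117282522, minus strand): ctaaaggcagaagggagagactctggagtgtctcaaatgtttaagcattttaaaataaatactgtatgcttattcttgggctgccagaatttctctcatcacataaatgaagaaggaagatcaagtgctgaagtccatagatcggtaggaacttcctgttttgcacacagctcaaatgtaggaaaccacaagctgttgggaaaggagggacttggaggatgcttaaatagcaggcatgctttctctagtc

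S100a8 held 2 matches to GAGGAA, beginning 170 and 36 bases before its start, and S100a9, Siglech and Lyz1 each held 1 match to TTGCNNAA, while the Lyz2 window held neither. Of 41 markers, 30 had a promoter in the RefSeq table. GAGGAA stood in 5 of 10 myeloid promoters (Cd68, Csf3r, Cst3, Ctss and S100a8), in 1 of 7 B cell, 0 of 4 dendritic, 1 of 3 CD8 and NK and 2 of 6 erythroid promoters, and in 23.1% of all 27025 promoters searched. TTGCNNAA stood in 3 of 10 myeloid promoters (Cd68, Lyz1 and S100a9), in 1 of 7 B cell, 1 of 4 dendritic, 1 of 3 CD8 and NK and 1 of 6 erythroid promoters, and in 9.55% of all. The GATA core AGATAA stood in 3 of 6 erythroid promoters (Alas2, Epb42 and Hbb-bs), in 2 of 10 myeloid promoters (Mpeg1 and S100a9), in 0 of the other 3 lineages, and in 10.3% of all. All 3 motifs were searched on both strands, AGATAA is not marked above, and no matches of different motifs overlapped in the windows shown. The last 100 bases before the start were 92.0% identical between Lyz1 and Lyz2 without gaps.

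The libraries held 34400000 to 38100000 counted reads in miR-27 Tg and 37700000 to 42100000 in WT, read from the value of a single read in the table. All values are RPKM, here reads per kilobase of transcript and per 10000000 counted reads. The hairpin gene Mir27a had 2206 to 2921 reads in miR-27 Tg and 8 to 13 in WT, so each library matched its label. Foxp3 had 774 to 955 RPKM in miR-27 Tg and 662 to 830 RPKM in WT, and Cd4 had 2117 to 2293 RPKM in miR-27 Tg and 1864 to 2034 RPKM in WT. All 13 T cell and Treg identity genes of a marker list lay between 0.70 and 1.5 times their own 6-library mean in every library. Of these, Ctla4 and Cd28 had every miR-27 Tg library below every WT library (log2 fold changes -0.56 and -0.39), beside 11.6% of all genes. Cd4 and Cd247 had every miR-27 Tg library above (0.18 each), beside 6.84%. The groups of Ikzf2 overlapped (-0.51), and 0 of the 13 passed the adjusted threshold given below. All 6 libraries were kept in the comparison. Of the 36 markers with a mean of at least 1 RPKM, miR-27 Tg replicate 2 was the highest library for 22 and the lowest for 0, and over all 13621 genes tested it was the highest for 14.2%. The library of miR-27 Tg replicate 1 was the highest for 0 of the 36 and the lowest for 13, beside 13.9% and 28.6% of all genes.

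The comparison asked whether the RNA of these lineages differs between miR-27 Tg and WT Treg libraries. None of the 36 tested markers passed the threshold, in either direction, and 5 markers (Ebf1, Cd14, Ncr1, Slc4a1 and Epb42) were too low to test. By limma on log2(RPKM + 1), with Benjamini-Hochberg adjustment over 13621 genes and a threshold of 0.05, 0 of 36 were called, beside 1.03% of all genes (0.374% higher and 0.653% lower in miR-27 Tg). The lowest adjusted p of a marker was 0.156, for S100a9. At an unadjusted p under 0.05, 9 of 36 markers were higher in miR-27 Tg and 0 lower, beside 4.59% and 8.43% of all genes. These 9 were the myeloid genes Lyz1, Lyz2, Csf1r, Cd68, Adgre1, S100a8, S100a9 and Csf3r, and Cd8b1, and without miR-27 Tg replicate 2 the count was 2. The groups did not overlap, with miR-27 Tg above WT, for 4 of 36 markers (Lyz1, S100a9, Csf3r and Cd8b1), beside 6.84% of all genes, and with miR-27 Tg below WT for 0 of 36, beside 11.6%.

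The markers varied more within the groups than most genes. Their median SD within groups was 0.62 on the log2 scale, against 0.18 over all genes tested, and 36 of 36 lay above that all-gene median. Their log2 fold changes were above 0 for 24 of 36, against 47.1% of all genes, with a median of 0.58 against -0.01. For 15 of the 24 markers with a higher mean in miR-27 Tg, the ratio of the group means was smaller than the ratio of the highest to the lowest library within each of the groups. The same count was not made over all genes, so it does not set the markers apart from other genes.

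**Figure D1:**
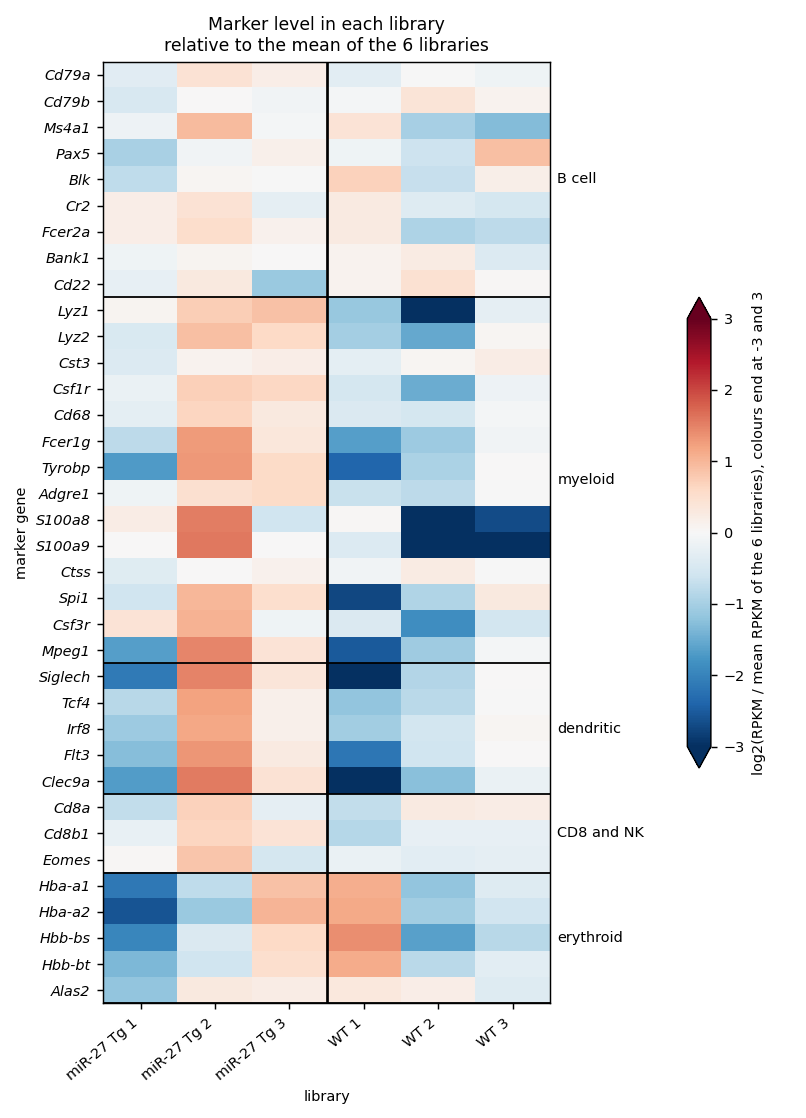
Each row is a marker, grouped by lineage, and each column a library, miR-27 Tg at the left and WT at the right. Colour shows log2 of the RPKM over the marker's mean of the 6 libraries, and colours end at -3 and 3. The column of miR-27 Tg replicate 2 is the highest for 22 of the 36 tested markers, and the erythroid rows are highest in WT replicate 1.

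Among myeloid markers, S100a9, S100a8 and Lyz1 had the largest fold changes. S100a8 and S100a9 encode the chains of calprotectin, an abundant cytosolic protein of neutrophils. S100a9 (NM_001281852, mm10 chr3:90692630-90695721) had 57.2, 170 and 57.1 RPKM in miR-27 Tg and 42.6, 5.88 and 6.14 RPKM in WT. All 3 miR-27 Tg libraries lay above all 3 WT libraries, and WT replicate 1 was near the lower miR-27 Tg values. The log2 fold change was 2.69 (95% interval 1.01 to 4.38, SE 0.73), with an adjusted p of 0.156 by limma. S100a8 (NM_013650, chr3:90669071-90670034) had 46.1, 115 and 26.3 RPKM in miR-27 Tg and 40.5, 4.60 and 6.17 RPKM in WT. Its groups overlapped, since WT replicate 1 lay above miR-27 Tg replicate 3, and its log2 fold change was 2.16 (SE 0.78, adjusted p = 0.287). Both genes were highest in miR-27 Tg replicate 2, with 153 reads for S100a8 and 303 for S100a9, against 7 and 12 reads in WT replicate 2. Csf3r, the receptor for the neutrophil growth factor G-CSF, had 2.50, 3.88 and 1.72 RPKM in miR-27 Tg and 1.41, 0.52 and 1.30 RPKM in WT (log2 fold change 0.82, SE 0.32, adjusted p = 0.319). The groups of Csf3r did not overlap in RPKM, though miR-27 Tg replicate 3 and WT replicate 1 had 23 reads each.

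Lysozymes break down bacterial cell walls, and Lyz2 is the form of macrophages and neutrophils. Lyz1 (NM_013590, chr10:117287795-117292868) had 15.4, 24.2 and 26.8 RPKM in miR-27 Tg and 6.61, 1.82 and 12.02 RPKM in WT, without overlap between the groups. Its log2 fold change was 1.79 (95% interval 0.62 to 2.96, SE 0.51, adjusted p = 0.172). Lyz2 (NM_017372, chr10:117277541-117282272) had 196, 501 and 405 RPKM in miR-27 Tg and 131, 91.9 and 277 RPKM in WT, and the groups overlapped in WT replicate 3. Its log2 fold change was 1.18 (SE 0.45, adjusted p = 0.305). Lyz1 and Lyz2 are neighbouring genes of the same family, and their transcripts were not compared here. How reads with several genomic positions were assigned is not given, so the split of reads between them is uncertain.

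The most abundant myeloid markers, Ctss and Cst3, had fold changes close to 0. Ctss, the lysosomal protease cathepsin S, had 1109, 1430 and 1555 RPKM in miR-27 Tg and 1326, 1697 and 1419 RPKM in WT (log2 fold change -0.12, 95% interval -0.47 to 0.22, adjusted p = 0.808). Cst3, the protease inhibitor cystatin C, had 280, 402 and 425 RPKM in miR-27 Tg and 301, 386 and 432 RPKM in WT (log2 fold change -0.02, 95% interval -0.46 to 0.41, adjusted p = 0.979). Of the 14 myeloid markers tested, these 2 had a fold change below 0, which for Cst3 turned to 0.0091 under median-ratio size factors, and in both the lowest library was miR-27 Tg replicate 1.

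The other surface and transcription markers of myeloid cells were mostly highest in miR-27 Tg replicate 2. Csf1r, the receptor for the macrophage growth factor M-CSF, had 14.9 to 27.8 RPKM in miR-27 Tg and 6.07 to 15.3 RPKM in WT, and Hmgxb3 shares 15.1% of its exonic bases. Cd68, a lysosomal glycoprotein of macrophages, had 47.9 to 90.5 RPKM in miR-27 Tg and 40.4 to 56.1 RPKM in WT. Adgre1, the macrophage surface protein F4/80, had 3.995 to 6.49 RPKM in miR-27 Tg and 2.52 to 4.28 RPKM in WT. Fcer1g, the signalling chain of activating Fc receptors, ranged from 28.6 to 120 RPKM in miR-27 Tg and from 15.7 to 45.7 RPKM in WT. Spi1, which encodes the myeloid and B cell transcription factor PU.1, ranged from 7.92 to 23.9 RPKM in miR-27 Tg and from 1.79 to 14.6 RPKM in WT. Cd14, a lipopolysaccharide co-receptor of monocytes, had few reads, 0, 2 and 7 reads in miR-27 Tg and 3, 1 and 3 reads in WT. The 0 reads of miR-27 Tg replicate 1 allow up to 3 reads, or 0.475 RPKM, by the limit of 3 counts used here for a count of 0 (its exact 95% Poisson interval reaches 3.69 reads).

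Tyrobp and Mpeg1, named here after their values were seen, spread far more within the groups than Csf1r or Cd68. Tyrobp, the signalling adaptor DAP12, had 51.7, 415 and 250 RPKM in miR-27 Tg and 32.3, 86.4 and 167 RPKM in WT. Mpeg1, a pore-forming protein of phagocytes, had 44.6, 388 and 185 RPKM in miR-27 Tg and 24.7, 66.7 and 134 RPKM in WT. The order of the 6 libraries was the same in both, and replicate 1 was the lowest library of its group in each. Over the 14 tested myeloid markers, 0 passed the adjusted threshold, 12 had a fold change above 0, and the median log2 fold change was 1.17. This median was 0.65 without miR-27 Tg replicate 2, 0.75 without WT replicate 1 and 1.61 without WT replicate 3.

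**Figure D2:**
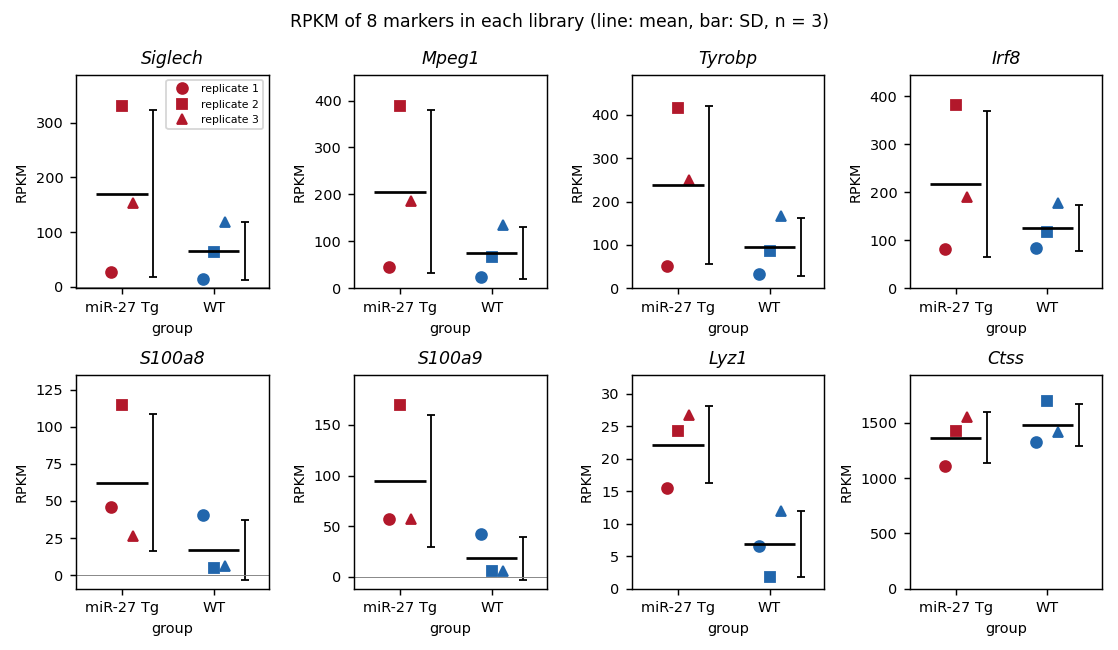
RPKM of 8 markers in each library, with symbols for the replicate number, a line at the group mean and a bar at 1 SD (n = 3). Siglech, Mpeg1, Tyrobp and Irf8 share a high miR-27 Tg replicate 2 at 331, 388, 415 and 381 RPKM, while Lyz1 and S100a9 keep every miR-27 Tg library above every WT library and Ctss lies between 1109 and 1697 RPKM in all 6.

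Dendritic cell markers differed widely between libraries of the same group. Siglech, a sialic acid-binding receptor of mouse plasmacytoid dendritic cells, the main producers of type I interferon, had 27.4, 331 and 153 RPKM in miR-27 Tg and 14.4, 64.4 and 119 RPKM in WT (NM_178706, chr7:55768184-55778925). Its highest library exceeded its lowest 12.1-fold within miR-27 Tg and 8.28-fold within WT, while the ratio of the group means was 2.58. The log2 fold change was 1.19 with a 95% interval from -1.05 to 3.43 (SE 0.97, adjusted p = 0.686). Tcf4, the transcription factor E2-2 required by plasmacytoid dendritic cells, had 10.8, 44.3 and 21.3 RPKM in miR-27 Tg and 8.42, 10.9 and 19.1 RPKM in WT. Flt3, the receptor for the growth factor that drives dendritic cell development, had 5.72, 34.2 and 16.6 RPKM in miR-27 Tg and 3.08, 9.03 and 13.9 RPKM in WT. Both genes repeat the ranking of libraries that Siglech shows.

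Clec9a, a receptor for dead cells on dendritic cells, had 3.12, 29.2 and 13.5 RPKM in miR-27 Tg and 1.16, 4.18 and 8.64 RPKM in WT. Clec1b shares 5.59% of its exonic bases. Its log2 fold change, 1.36 (SE 0.76, adjusted p = 0.534), was the largest of the 5 dendritic markers. Irf8, a transcription factor of dendritic cells and monocytes that B cells also use, had 81.1, 381 and 189 RPKM in miR-27 Tg and 83.8, 117 and 178 RPKM in WT. All 5 dendritic markers were highest in miR-27 Tg replicate 2, and all 5 had overlapping groups.

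The order miR-27 Tg replicate 2, miR-27 Tg replicate 3, WT replicate 3, WT replicate 2, miR-27 Tg replicate 1, WT replicate 1, from high to low, interleaves the groups. It was found in Siglech, Tcf4, Flt3, Clec9a, Tyrobp and Mpeg1, which is 6 of 36 markers, and in 115 genes or 0.844% of all genes tested. Irf8 departed from it only in the last 2 places. This order was taken up after the values were seen, and is given as a description. The median log2 fold change of the 5 dendritic markers was 0.92, and without miR-27 Tg replicate 2 it was 0.36.

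**Figure D3:**
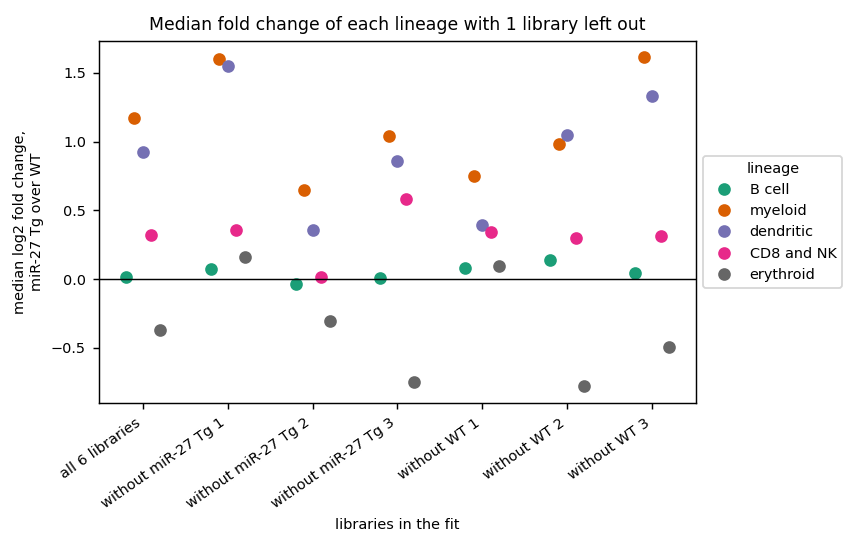
Median log2 fold change of the tested markers of each lineage, miR-27 Tg over WT, in the fit of all 6 libraries and in fits with 1 library left out. The myeloid median ranges from 0.65 to 1.61 and the dendritic median from 0.36 to 1.55, both lowest without miR-27 Tg replicate 2, while the B cell median stays within -0.03 to 0.14.

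B cell markers were read in all 6 libraries, and none of the 9 tested passed the threshold. Cd79b, a signalling chain of the B cell antigen receptor, was the most abundant, with 63.8, 90.0 and 82.9 RPKM in miR-27 Tg and 85.9, 116 and 95.5 RPKM in WT (log2 fold change -0.33, 95% interval -0.70 to 0.04, adjusted p = 0.454). Bank1, a scaffold protein of B cell receptor signalling, had 19.4, 22.6 and 21.4 RPKM in miR-27 Tg and 22.9, 25.1 and 15.8 RPKM in WT, a log2 fold change of 0.02 (95% interval -0.42 to 0.45). Cd22, an inhibitory receptor of B cells, had 14.2, 20.4 and 7.69 RPKM in miR-27 Tg and 17.9, 23.0 and 17.0 RPKM in WT (log2 fold change -0.51, adjusted p = 0.579), with 9.50% of its exonic bases shared with a predicted gene. The groups overlapped for all 3.

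Ms4a1, the B cell surface protein CD20, had 4.87, 10.5 and 5.25 RPKM in miR-27 Tg and 7.20, 2.73 and 2.203 RPKM in WT (log2 fold change 0.70, SE 0.41, adjusted p = 0.555). Fcer2a, the low-affinity IgE receptor CD23, had 4.49, 5.65 and 4.27 RPKM in miR-27 Tg and 4.74, 2.05 and 2.27 RPKM in WT (log2 fold change 0.58, SE 0.29, adjusted p = 0.460). In both genes WT replicate 1 lay within the miR-27 Tg range, and WT replicates 2 and 3 were the lowest libraries. Cd79a, the partner chain of Cd79b, ranged from 12.5 to 21.6 RPKM in miR-27 Tg and from 12.8 to 15.8 RPKM in WT. Blk, a kinase of the B cell receptor, ranged from 3.10 to 5.43 RPKM in miR-27 Tg and from 3.20 to 8.41 RPKM in WT, and Cr2, the complement receptor CD21, from 1.64 to 2.68 RPKM in miR-27 Tg and from 1.37 to 2.38 RPKM in WT.

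The transcription factors that set B cell identity had few reads. Pax5 had 3, 5 and 6 reads in miR-27 Tg and 6, 4 and 11 reads in WT, and Ebf1 had 14, 4 and 7 reads in miR-27 Tg and 19, 7 and 10 reads in WT. Over the 9 tested B cell markers, 5 fold changes were above 0 and 4 below, with a median log2 fold change of 0.02, and 9 of 9 intervals included 0.

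Of the 3 tested CD8 and NK markers, only Cd8b1 had groups that did not overlap, by a narrow gap. The Cd8 genes encode the chains of the co-receptor of cytotoxic T cells. Cd8b1 (NM_009858, chr6:71322812-71337451) had 92.7, 170 and 145 RPKM in miR-27 Tg and 60.3, 91.5 and 92.0 RPKM in WT, and the lowest miR-27 Tg library lay just above the highest WT library. Its log2 fold change was 0.72 (95% interval 0.15 to 1.28, SE 0.25, adjusted p = 0.258). Cd8a had 9.76, 26.3 and 13.7 RPKM in miR-27 Tg and 9.84, 19.7 and 19.1 RPKM in WT, a log2 fold change of -0.02 (95% interval -0.89 to 0.85). The groups of Cd8a overlapped throughout, and its level was below that of Cd8b1 in all 6 libraries, per kilobase of transcript.

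Eomes, a transcription factor of NK cells and memory CD8 T cells, had 4.53, 7.91 and 3.06 RPKM in miR-27 Tg and 3.85, 3.57 and 3.65 RPKM in WT, a log2 fold change of 0.32 (adjusted p = 0.737). Ncr1, the NK cell receptor NKp46, had 9, 6 and 4 reads in miR-27 Tg and 0, 2 and 4 reads in WT, with counting intervals that overlap between most pairs of libraries (4.12 to 17.1 reads in miR-27 Tg replicate 1, 1.09 to 10.2 reads in WT replicate 3). Its groups did not overlap in RPKM, at 0.80 in miR-27 Tg replicate 3 and 0.73 in WT replicate 3, with 4 reads in each. The 0 reads of WT replicate 1 allow up to 3 reads, or 0.491 RPKM, by the same limit for a count of 0 (3.69 reads by the exact interval). Intervals and floors cover counting error only.

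**Figure D4:**
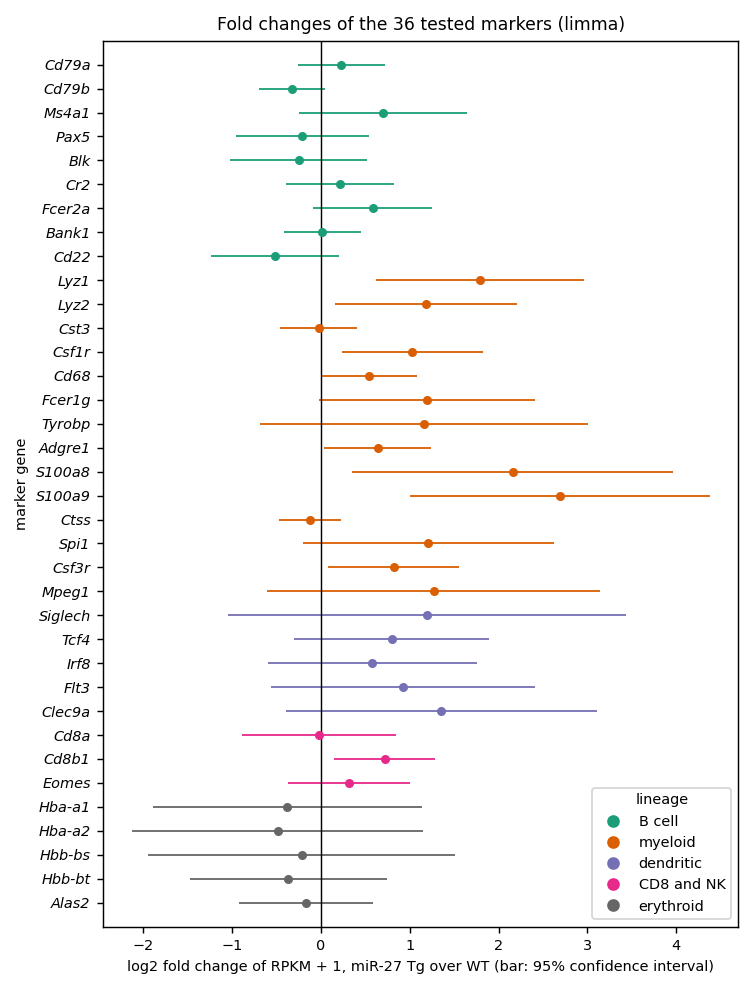
Log2 fold change of each tested marker, miR-27 Tg over WT, with its 95% interval from limma, grouped by lineage. The intervals of 27 of the 36 include 0, and the 9 that lie above it are 8 myeloid markers and Cd8b1.

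Erythroid markers had the lowest summed level of the 5 lineages, 7.64 to 38.4 RPKM in miR-27 Tg and 12.6 to 55.9 RPKM in WT with the alpha chain counted once, and another library order. Hba-a1 and Hba-a2 encode the alpha chain of haemoglobin, and Hbb-bs and Hbb-bt the adult beta chain. Hbb-bs had 2.90, 8.24 and 16.9 RPKM in miR-27 Tg and 29.3, 3.61 and 6.28 RPKM in WT (log2 fold change -0.22, SE 0.75, adjusted p = 0.949). Hba-a1 had 1.42, 3.67 and 11.5 RPKM in miR-27 Tg and 13.3, 2.75 and 4.79 RPKM in WT (log2 fold change -0.38, SE 0.66, adjusted p = 0.880). WT replicate 1 was the highest library and miR-27 Tg replicate 1 the lowest for both, and the groups overlapped.

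Hbb-bt had 1.68, 2.79 and 6.04 RPKM in miR-27 Tg and 9.13, 2.44 and 3.40 RPKM in WT, and Hba-a2 had 0.94, 2.60 and 11.4 RPKM in miR-27 Tg and 12.4, 2.73 and 3.80 RPKM in WT. The table places Hba-a2 at chr11:32283675-32284493, over Hba-a1 at chr11:32283672-32284486, so the alpha genes cannot be told apart. The longest open reading frames of the alpha pair and of the beta pair were each 99.8% identical. The untranslated ends were not compared, so the split of reads between Hbb-bs and Hbb-bt is uncertain. Alas2, which begins haem synthesis in red cell precursors, ranged from 1.37 to 3.78 RPKM in miR-27 Tg and from 2.35 to 3.84 RPKM in WT, and Apex2 and Mir3620 share 15.5% of its exonic bases. All 5 tested erythroid markers were highest in WT replicate 1 and lowest in miR-27 Tg replicate 1, beside 12.1% and 28.6% of all genes. Since the alpha genes share a position, they do not count as separate markers here. Alas2 was nearly as high in miR-27 Tg replicate 2 (3.78 RPKM) as in WT replicate 1 (3.84 RPKM).

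The membrane proteins of red cells had few reads. Slc4a1, the band 3 anion exchanger, had 0, 0 and 0 reads in miR-27 Tg and 8, 0 and 0 reads in WT, so all its reads came from WT replicate 1. Epb42, protein 4.2, had 4, 1 and 4 reads in miR-27 Tg and 0, 4 and 2 reads in WT. The median log2 fold change of the 5 tested erythroid markers was -0.37, with 0 of 5 above 0. It was 0.16 without miR-27 Tg replicate 1 and 0.09 without WT replicate 1.

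Among further marker lists, none of whose genes are members, limma called 4 of 82 tested genes (4.88%), beside 1.03% of all genes. Of 19 tested monocyte and macrophage genes 1 rose, the integrin chain Itgam (16.4 ± 0.58 RPKM in miR-27 Tg and 4.41 ± 0.49 RPKM in WT, SD, n = 3 each; log2 fold change 1.69, adjusted p = 0.0118), and 68.7% of its exonic bases also belong to a predicted gene. Of 10 tested NK and CD8 genes 2 fell, the chemokine Xcl1 (log2 fold change -1.41, adjusted p = 0.0238, with 18.7% of its exonic bases shared) and the granule protein Nkg7 (log2 fold change -0.93, adjusted p = 0.0257). Epcam, an epithelial adhesion molecule, fell among 3 tested stromal, endothelial and epithelial genes (log2 fold change -1.52, adjusted p = 0.0134). Another 5 genes of that list were too low to test, among them the epithelial keratin Krt8, with 0, 0 and 0 reads in miR-27 Tg and 1, 0 and 0 in WT. Whether the reads of Itgam, Xcl1, Nkg7 and Epcam come from Treg cells or from other cells was not tested. In the further lists of dendritic (9 genes tested), B cell (9), neutrophil (8), plasma cell (4), erythroid (3), platelet (2), mast cell and basophil (2) genes, and of T cell and Treg identity genes (13), limma called 0. At an unadjusted p under 0.05, 4 of the neutrophil genes were higher in miR-27 Tg and 1 lower, as were 6 and 1 of the monocyte and macrophage genes, beside 4.59% and 8.43% of all genes. Of the NK and CD8 genes 1 was higher and 5 were lower at that p, and for 5 of 10 every miR-27 Tg library lay below every WT library, beside 11.6% of all genes. Of the B cell genes 1 was higher and 1 lower, of the dendritic genes 1 higher and 0 lower, of the plasma cell genes 1 higher and 0 lower, and of the stromal, endothelial and epithelial genes 1 higher and 1 lower. Of the identity genes 0 were higher and 3 lower (Cd28, Ikzf2 and Ctla4). Of the erythroid, platelet, mast cell and basophil genes 0 were called in either direction at that p.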

How the data were processed

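Total RNA of the sorted cells, small RNAs included, was made into TruSeq libraries, per the labels' protocols. The aligner STAR 2.2.0c, the counter HOMER and the builds mm10 and GRCm38 come from the labels, per the submitters' processing notes. The authors deposited RPKM values for 34711 RefSeq transcripts, counted over exons on both strands and scaled to 10000000 reads, per the file headers. Reads of overlapping genes on opposite strands can therefore not be told apart. Per symbol, the transcript with the highest mean RPKM was kept. Low values (transcripts 200 to 4000 bases long) were in 100% of cases a whole number of reads, within 0.1 of a read, which gave depth and read numbers. From the deposited RPKM values, log2(RPKM + 1) was computed and fitted by limma 3.58.1 under R 4.3.3 (limma-trend, two-sided, Benjamini-Hochberg) over 13621 genes with a mean of at least 1 RPKM, and fold changes on this log2 scale understate those of low genes. The fit was tested on simulated data with a preset spread common to all genes, so its recovery does not carry over to these more variable markers. Intervals of reads are exact 95% Poisson intervals.

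The members and lists were chosen with earlier results of these data known. Values in each library are printed for markers whose groups do not overlap, for the 3 most abundant and the 3 with the largest fold change of each lineage, and, as reads, for those under 1 RPKM. Exon sharing was taken from GENCODE M21. Alternatives were another pseudocount, filter, trend, scaling, weighting or transcript, a replicate block, and leaving out each library.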

Additional observations from a re-analysis of the deposited data

How the results depend on the processing

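Over 15 alternatives, 507 of 532 marker values kept their direction and their side of the threshold, 24 changed sign and 1 passed the threshold. The whole table had 51 genes higher in miR-27 Tg and 89 lower, against 22 and 14 with no filter on low values, 81 and 144 with array weights, and 91 and 185 with a replicate block. With 1 library left out the counts ran from 3 to 14 higher and from 1 to 44 lower, and 0 of 36 markers passed. With the replicate block, 1 of 36 markers was called higher, Cd8b1 (log2 fold change 0.72, adjusted p = 0.0274), so 1 of 3 CD8 and NK markers. Deviations from the group means correlated at 0.37, 0.10 and 0.04 between libraries of equal number. Of the miR-27 Tg libraries only replicate 1 correlated best with its own number. That value of 0.37 was the highest of any miR-27 Tg and WT pair, and the next was 0.15. These correlations do not settle whether equal numbers pair the libraries, and the labels do not say.

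The values that changed sign belong to 11 markers, and the cause was not tested. Cd8a had a log2 fold change of 0.19 with array weights and 0.0089 with size factors, Alas2 0.058 with array weights and Cst3 0.0091 with size factors. With 1 library left out, log2 fold changes ran from -0.39 to 0.28 for Cd8a, from -0.34 to 0.16 for Alas2, from -0.17 to 0.16 for Cst3, from -0.23 to 0.018 for Ctss, from -0.17 to 0.14 for Bank1, from -0.56 to 0.017 for Blk and from -0.40 to 0.048 for Pax5. For the haemoglobin genes they ran from -1.01 to 0.18 for Hba-a1, from -1.23 to 0.11 for Hba-a2, from -0.78 to 0.58 for Hbb-bs and from -0.75 to 0.094 for Hbb-bt.

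In a fit with 1 library left out, a group of 2 shares its estimate of spread with the other group. The count of markers at an unadjusted p under 0.05 and higher in miR-27 Tg was 9 of 36, and 3 of the same 36 with no filter on low values (4 of all 41 in either direction). With 1 library left out it ran from 2 (without miR-27 Tg replicate 2) to 18 (without miR-27 Tg replicate 1). Over all 13621 genes the counts in these fits were 441 and 732. For 3 against 3 libraries an exact permutation test cannot give a p below 0.1. Markers with under 20 reads per library, such as Pax5, Ebf1, Cd14, Ncr1, Slc4a1 and Epb42, are limited by depth.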

Other observations

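Neutrophil genes outside the 41 markers, a list of 10, did not share a library order. The primary granule proteins Mpo and Elane, made early in neutrophil development, were read mainly in replicate 1 of each group: Mpo had 48, 2 and 1 reads in miR-27 Tg and 50, 0 and 1 reads in WT, and Elane had 18, 1 and 2 reads in miR-27 Tg and 13, 0 and 0 reads in WT. The later granule proteins had another order. Ngp had 105, 216 and 51 reads in miR-27 Tg and 76, 1 and 1 reads in WT, and Ltf, lactoferrin, had 64, 175 and 50 reads in miR-27 Tg and 23, 3 and 0 reads in WT. Like S100a8 and S100a9, Ngp and Ltf were highest in miR-27 Tg replicate 2. They had at most 3 reads in WT replicates 2 and 3. Camp had 34, 43 and 19 reads in miR-27 Tg and 36, 1 and 1 reads in WT, and Lcn2 had 15, 51 and 26 reads in miR-27 Tg and 16, 0 and 0 reads in WT. Mmp9, the gelatinase of late granules, went the other way, with 51, 104 and 50 reads in miR-27 Tg and 205, 119 and 316 reads in WT. Its groups did not overlap in RPKM, miR-27 Tg below WT (log2 fold change -1.32, adjusted p = 0.200 by limma). Retnlg, Mmp8 and Cxcr2 had 3 to 18 reads in miR-27 Tg and 1 to 11 reads in WT.

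Cdh5, the adhesion molecule VE-cadherin of endothelium, followed the library order of Siglech, with 2.12, 15.0 and 8.19 RPKM in miR-27 Tg and 0.48, 2.82 and 7.15 RPKM in WT. Of the further dendritic genes 4 of 9 tested, and of the further B cell genes 3 of 9 tested, had the same order, beside 0.844% of all genes. Xcr1, a further dendritic gene too low to test, had 18, 3 and 14 reads in miR-27 Tg and 19, 16 and 20 reads in WT. Of the 9 tested further dendritic genes, 7 had a log2 fold change above 0. The 2 below were Zbtb46 (-0.65) and Ccr9 (-0.19).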
